A study of Mus musculus with 4 samples.

Results

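The 10 genes described here carry out the uptake, storage and export of iron, and they were followed in mouse erythroleukemia cells with and without Wdr26. They are Tfrc, Slc11a2, Steap3 and Snx3 (transferrin-bound iron uptake), Fth1 and Ftl1 (storage), Slc40a1 (export), Fam132b (the hormone erythroferrone), Ireb2 (iron sensing) and Abcb10 (a mitochondrial transporter). They were picked by name as a pathway, with earlier results of these data known, and all 10 were among the 17393 genes of the table. RNA was sequenced in 2 libraries from Wdr26-/- cells and 2 from wild-type cells, all of the mouse erythroleukemia line DS19, whose cells resemble erythroid precursors. Wdr26 encodes a subunit of an E3 ubiquitin ligase complex. Both genotypes share 1 culture description, DMEM with fetal bovine serum, which names 1.5% dimethyl sulfoxide as the agent of differentiation without stating if the cells used for these libraries were given it. The number of knockout clones is not stated in the sources used here. No label ties libraries to cultures of their own, and p-values therefore measure the spread between these libraries, which may be technical.

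Developing red cells take up more iron than almost any other cell, because each heme needs an iron atom. Transferrin carries iron to the transferrin receptor, the pair is taken into endosomes, the iron is released and reduced there, and a transporter moves it into the cytosol on its way to mitochondria. Surplus iron is held in ferritin, a shell of heavy and light chains, or leaves through ferroportin. When iron is scarce, iron regulatory proteins bind hairpins in the messenger RNAs called iron responsive elements, which blocks translation when the hairpin lies in the 5′ UTR and protects the transcript when it lies in the 3′ UTR of the transferrin receptor.

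Because these hairpins are the shared regulatory feature of the family, they are shown first. The transcripts were searched on their own strand for an unpaired C, 5 bases, a loop of CAGTGN or CAGAGN, and 5 bases able to pair with the first 5, with G-T pairs allowed. Of the 10 genes, 5 held a match. Among the 21901 protein-coding genes searched in the GENCODE M21 annotation (GRCm38), 621 (2.84%) held at least 1 match anywhere in a transcript, and 1 gene, Tfrc, held 5 or more in a single transcript. In the stretches below, written 5′ to 3′ with T for U, capitals mark the unpaired C and the loop. The Tfrc elements all lay in the 3′ UTR on the plus strand, starting at transcript positions 3256, 3315, 3694, 3759 and 3806 of 4890.
Tfrc element 1 (chr16:32631160-32631188): atttatCagtgaCAGAGTtcactataaat
Tfrc element 2 (chr16:32631219-32631247): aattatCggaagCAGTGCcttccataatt
Tfrc element 3 (chr16:32631598-32631626): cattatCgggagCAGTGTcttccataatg
Tfrc element 4 (chr16:32631663-32631691): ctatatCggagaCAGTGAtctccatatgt
Tfrc element 5 (chr16:32631710-32631738): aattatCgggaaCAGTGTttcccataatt

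The ferritin and ferroportin transcripts each held 1 element, in the 5′ UTR.
Fth1 (chr19:9982732-9982760, plus strand): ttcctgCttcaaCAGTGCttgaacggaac
Ftl1 (chr7:45459779-45459807, minus strand): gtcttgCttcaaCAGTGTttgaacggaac
Slc40a1 (chr1:45925465-45925493, minus strand): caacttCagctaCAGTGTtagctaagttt
Outside the upper stem, 6 of the 6 flanking base pairs could form in Tfrc elements 1, 2, 3 and 5, and 5 of 6 in element 4. That number was 4 for Fth1 and 5 each for Ftl1 and Slc40a1. Abcb10 also held 1 match, in its 3′ UTR with a CAGAGG loop, but only 1 of the 6 flanking pairs could form there. No match to the letters and the 5 pairs was found in the searched transcripts of Slc11a2, Steap3, Snx3, Fam132b or Ireb2. A 3′ hairpin is known for Slc11a2, so the lack of a match does not show that a gene lacks the hairpin. A match describes the sequence and was not tested for binding.

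The table held FPKM, fragments scaled to transcript length and library size, so levels can be compared between genes. Steps between the low values of 1661 genes put the depth at about 24500000 and 23300000 fragments in the knockout libraries and 23600000 and 24700000 fragments in the wild-type libraries. These estimates are rough: other assumptions about effective length put them anywhere between 18900000 and 29200000 fragments, and precision derived from them covers counting error only. Wdr26 itself had 9.0 and 7.84 FPKM in knockout, against 55.4 and 52.4 FPKM in wild type (limma, Benjamini-Hochberg adjusted p = 0.0063). All 8 erythroid markers examined reached 1 FPKM in every library, and 4 of them (Alas2, Epor, Klf1 and Slc4a1) had both knockout values below both wild-type values, as did 10.8% of all genes tested. Slc4a1, which encodes an anion exchanger of the red cell membrane, differed by more than the rest, at 48.6 and 6.70 FPKM in knockout, against 436 and 285 FPKM in wild type. Macrophage markers, whose cells also express Slc40a1 strongly, summed to 3.02 and 2.33 FPKM in knockout and to 2.74 and 1.74 FPKM in wild type, with 1 of 7 (Cd68) reaching 1 FPKM in every library and Adgre1 at no more than 0.08 FPKM. Fibroblast markers reached at most 0.58 FPKM, and the mast cell gene Cpa3 was listed at 0 throughout. Megakaryocyte markers, of which 4 of 5 reached 1 FPKM in every library, summed to 274 and 285 FPKM in knockout and to 249 and 304 FPKM in wild type. The part of these marker levels in the values of the iron genes was not tested.

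The series compares Wdr26 knockout with wild-type cells. None of the 10 iron genes passed an adjusted p of 0.05 in limma on log2(FPKM + 1), and 1, Tfrc, had an unadjusted p under 0.05, as did 2.4% of all genes tested in that direction. Over the 10670 genes tested, 10 passed (0.0937%). For both Tfrc and Fam132b, the knockout values all lay below the wild-type values, and the knockout means were 54.0% and 49.4% of the wild-type means. Fth1, Slc40a1, Snx3 and Abcb10 were also lower in both knockout libraries, at between 88.9% and 92.5% of wild type. Slc11a2 was higher in both, at 114% of wild type, and Ftl1, Steap3 and Ireb2 overlapped between genotypes. In all, 6 of the 10 were lower in both knockout libraries, beside 10.8% of all genes tested, while 1 was higher in both, beside 29.9% of all genes tested. With values centred on each library's median the same 6 and 1 were found, beside 20.1% and 19.9% of all genes. The median log2 difference was −0.13 over the iron genes and 0.067 over all genes tested, and with median-centred values −0.20 over the iron genes and −0.0095 over all genes. In bulk RNA, fewer cells of a type and less RNA per cell cannot be told apart.

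**Figure D1:**
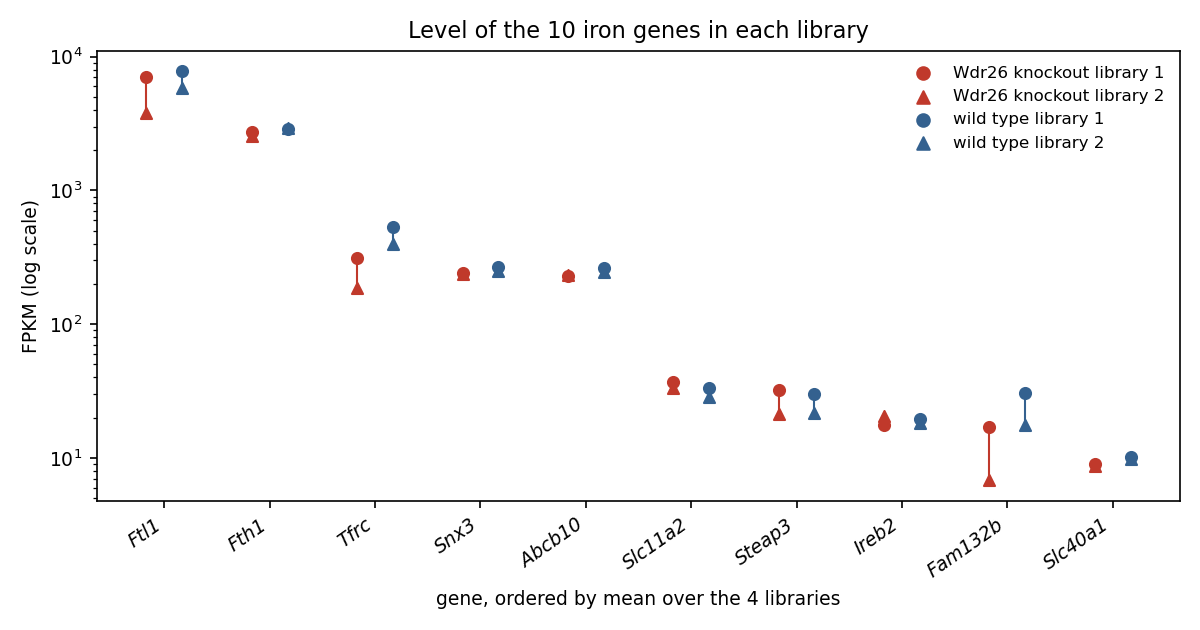
FPKM of each of the 10 iron genes in each library on a log axis, with knockout left of wild type, circles for library 1 and triangles for library 2, and a line joining the 2 libraries of a genotype. Tfrc lies at 314 and 187 FPKM in knockout, below 531 and 397 FPKM in wild type, while most other genes differ little between genotypes.

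Among the uptake genes, Tfrc (gene ID 22042, chromosome 16, 32608896 to 32632794, plus strand, mm10) encodes the transferrin receptor that brings iron-loaded transferrin into the cell. Its level was 314 and 187 FPKM in knockout libraries 1 and 2, against 531 and 397 FPKM in wild-type libraries 1 and 2. The genotypes did not overlap, and the lower of each pair was library 2. The means were 250.4 ± 90.2 FPKM in knockout and 464 ± 94.6 FPKM in wild type (SD, n = 2 each). On the log2(FPKM + 1) scale the difference was −0.92 with a standard error of 0.28, which did not pass the test over all genes (limma adjusted p = 0.313, unadjusted p = 0.0156). Without knockout library 2 the difference was −0.55 and did not pass (limma adjusted p = 0.256). Without knockout library 1 it was −1.29 and passed (limma adjusted p = 2.47e-06), in a fit that assumes the lone knockout library to vary like the wild-type ones; over all 12 alternatives the adjusted p ran from 1.65e-08 to 0.943. The lowest of the 4 values stood for an estimated 20606 fragments, for which counting error is 0.697%.

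Steap3 (gene ID 68428, chromosome 1, 120226414 to 120271081, minus strand) encodes the endosomal reductase that converts released ferric iron to ferrous iron. It stood at 32.2 and 21.3 FPKM in knockout and at 29.8 and 21.8 FPKM in wild type. The genotypes overlapped almost entirely, while library 2 lay below library 1 in each genotype (log2 difference between genotypes 0.04, SE 0.24, limma adjusted p = 0.977). The sign of that difference was negative with median-centred values (−0.04), after quantile normalization (−0.04) and with the globin genes left out (−0.02).

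Slc11a2 (gene ID 18174, chromosome 15, 100387898 to 100424209, minus strand) encodes DMT1, which carries ferrous iron out of the endosome. Its level was 36.9 and 33.4 FPKM in knockout, against 33.1 and 28.8 FPKM in wild type. Both knockout libraries were above both wild-type libraries, the closest by less than 1 FPKM, and the difference did not pass the test (log2 difference 0.18, SE 0.14, limma adjusted p = 0.732). Leaving out wild-type library 1 gave 0.28, leaving out wild-type library 2 gave 0.081 and leaving out knockout library 1 gave 0.11. The value sums the RefSeq isoforms and 1 transcript assembled from the reads, so forms with and without the 3′ hairpin known for this gene were not separated.

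Snx3 (gene ID 54198, chromosome 10, 42502054 to 42535369, plus strand) encodes a sorting nexin that recycles the transferrin receptor to the cell surface. It had similar values in all libraries, at 242 and 236 FPKM in knockout and at 266 and 250.5 FPKM in wild type. Knockout was lower in both libraries by a small margin (log2 difference −0.11, SE 0.13, limma adjusted p = 0.842).

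In the storage genes, the light chain of ferritin varied between libraries more than the heavy chain. Ftl1 (gene ID 14325, chromosome 7, 45457944 to 45459886, minus strand) encodes the light chain, which promotes formation of the iron core. It was the most abundant of the 10 genes, at 7101 and 3804 FPKM in knockout and at 7788 and 5879 FPKM in wild type. Knockout library 2 was the lowest and the other knockout library lay between the wild-type ones, so the genotypes overlapped (log2 difference −0.38, SE 0.33, limma adjusted p = 0.764). Without knockout library 2 the difference was 0.07 and without knockout library 1 it was −0.83.

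Fth1 (gene ID 14319, chromosome 19, 9980600 to 9985111, plus strand) encodes the heavy chain, which oxidizes ferrous iron for storage. It stood at 2747 and 2553 FPKM in knockout and at 2879.7 and 2935 FPKM in wild type. Both knockout libraries were lower, at 91.2% of the wild-type mean, without passing the test (log2 difference −0.13, SE 0.17, limma adjusted p = 0.853). The annotation holds 2 pseudogenes with ferritin light chain names and 5 with ferritin heavy chain names. Whether reads were shared with them is not known, so the ferritin levels are uncertain to that extent. Within a library, the FPKM ratio of light to heavy chain was 2.58 and 1.49 in knockout and 2.70 and 2.0 in wild type. The ratio of Fth1 to Tfrc was 8.74 and 13.7 in knockout, against 5.42 and 7.39 in wild type, so that it was higher in both knockout libraries. These ratios are given as descriptions without a test.

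Export and the hormonal signal for iron were represented by a pair of low genes. Slc40a1 (gene ID 53945, chromosome 1, 45908070 to 45926532, minus strand) encodes ferroportin, the only known cellular iron exporter. It had 9.0 and 8.69 FPKM in knockout, against 10.1 and 9.80 FPKM in wild type. The libraries of a genotype lay close together and knockout was lower in both, yet the log2 difference of −0.15 (SE 0.13) did not pass the test (limma adjusted p = 0.758). Counting error alone was about 3.92% at the lowest value.

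Fam132b (gene ID 227358, chromosome 1, 91366305 to 91374217, plus strand), now named Erfe, encodes erythroferrone, which erythroblasts release to suppress hepcidin in the liver. It stood at 17.1 and 6.81 FPKM in knockout, against 30.6 and 17.8 FPKM in wild type. Knockout library 2 was far below the others, and knockout library 1 was only just below wild-type library 2. The means were 11.9 ± 7.24 FPKM in knockout and 24.2 ± 9.06 FPKM in wild type (SD, n = 2 each). The log2 difference of −1.03 (SE 0.43) did not pass the test (limma adjusted p = 0.438, unadjusted p = 0.0503). It was −1.64 without knockout library 1, where it passed (limma adjusted p = 3.88e-13), and −0.43 without knockout library 2 (limma adjusted p = 0.309); leaving out wild-type library 1 gave −0.66 and leaving out wild-type library 2 gave −1.41. Over the 12 alternatives the adjusted p ran from 3.88e-13 to 1.00. Exons of Fam132b share 357 bases with Ilkap on the opposite strand, and the labels do not state if strand was kept. Ilkap, named because of that overlap, was at 52.7 and 42.8 FPKM in knockout and at 49.0 and 41.0 FPKM in wild type, and its part in the Fam132b values was not tested.

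**Figure D2:**
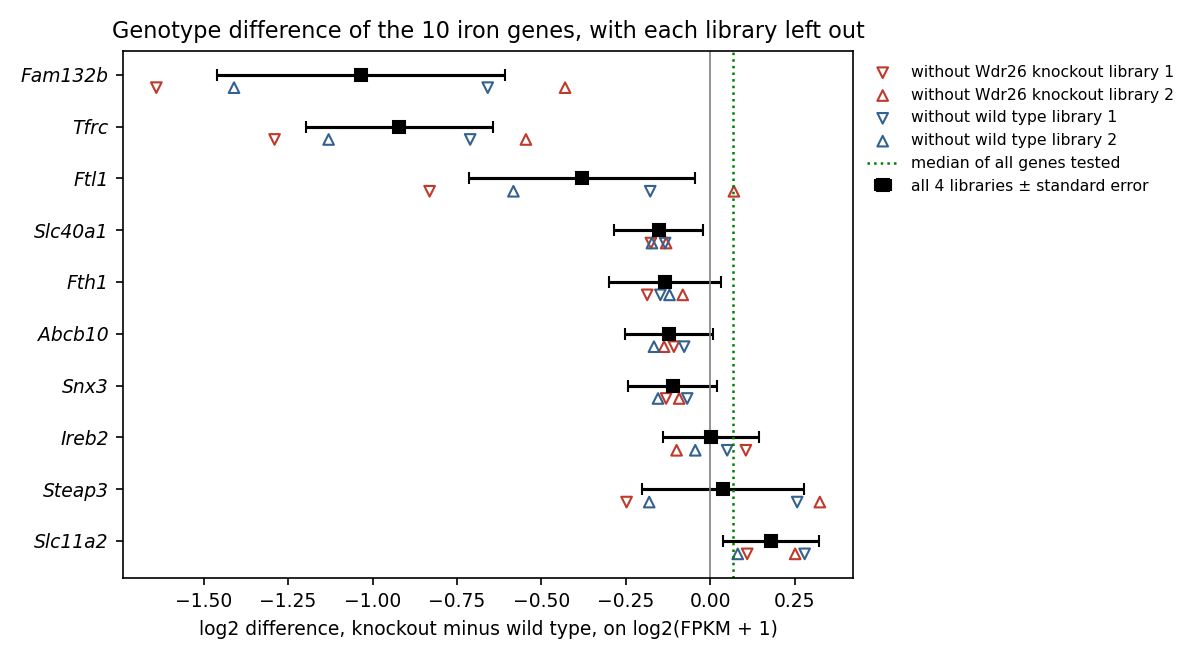
Log2 difference between knockout and wild type for each iron gene, as black squares with standard errors from all 4 libraries, and as open triangles with 1 library left out. The dotted line is the median of all genes tested (0.067). Fam132b and Tfrc stay below 0 whichever library is left out, which follows from their genotypes not overlapping. Their triangles spread widely, from −1.64 to −0.43 and from −1.29 to −0.55.

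Ireb2 and Abcb10 hardly differed between genotypes. Ireb2 (gene ID 64602, chromosome 9, 54862658 to 54912534, plus strand) encodes an iron regulatory protein that binds the hairpins and is degraded when iron is plentiful. It stood at 17.7 and 20.5 FPKM in knockout and at 19.7 and 18.4 FPKM in wild type. The genotypes overlapped, with a log2 difference of 0.003 (SE 0.14, limma adjusted p = 0.997), whose sign was negative with median-centred values (−0.07), after quantile normalization (−0.08) and with the globin genes left out (−0.05).

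Abcb10 (gene ID 56199, chromosome 8, 123952459 to 123983122, minus strand) encodes an inner mitochondrial membrane transporter that stabilizes the mitochondrial iron importer mitoferrin. Its level was 230.0 and 235 FPKM in knockout, against 261 and 245 FPKM in wild type. Knockout was lower in both libraries without passing the test (log2 difference −0.12, SE 0.13, limma adjusted p = 0.821). Exons of Abcb10 share 444 bases with an annotated antisense transcript, Gm45890, which was not analysed here. Other iron genes had overlaps too. Ftl1 shares 355 exon bases with Gm10252 on the opposite strand and 109 with Gm22133 on the same strand, neither of which had values. Slc11a2 shares 402 with Gm5475 on the opposite strand, which was at no more than 0.04 FPKM in any library. The part of these overlaps in the levels was not tested.

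Ordered by level, Ftl1 came first and Fth1 second in both genotypes, without overlap between these genes in either. In wild type Tfrc came next and was clear of Snx3 and Abcb10, which overlapped each other between 245 and 266 FPKM. In knockout the range of Tfrc, 187 to 314 FPKM, spanned those of Snx3 and Abcb10, which did not overlap each other. Slc11a2 followed in both genotypes. Its range was clear of Steap3 in knockout and overlapped it in wild type. Steap3 and Ireb2 did not overlap, while in wild type Fam132b, between 17.8 and 30.6 FPKM, overlapped both of them as well as Slc11a2, and in knockout it lay below all of these. Slc40a1 was the lowest by its mean in both genotypes, and in knockout its range fell inside that of Fam132b.

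The libraries of a genotype also differed from each other. For Fam132b, Ftl1, Steap3 and Ireb2 the knockout libraries differed from each other by more than the genotypes did. Library 2 was lower than library 1 in both genotypes for 7 of the 10 genes, against 46.5% of all genes tested. For Fam132b the log2 difference of library 2 from library 1 was −1.21 in knockout and −0.75 in wild type. For Ftl1 it was −0.90 in knockout and −0.41 in wild type, and for Tfrc it was −0.75 in knockout and −0.42 in wild type. Steap3 gave −0.57 in knockout and −0.44 in wild type. The SD of that difference over all genes tested was 0.36 in knockout and 0.27 in wild type, so these 4 genes differed by more than 1 SD in each genotype and the other 6 by less. What separates the libraries numbered 1 from those numbered 2 is not given in the labels, and its part in the genotype differences was not tested.

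**Figure D3:**
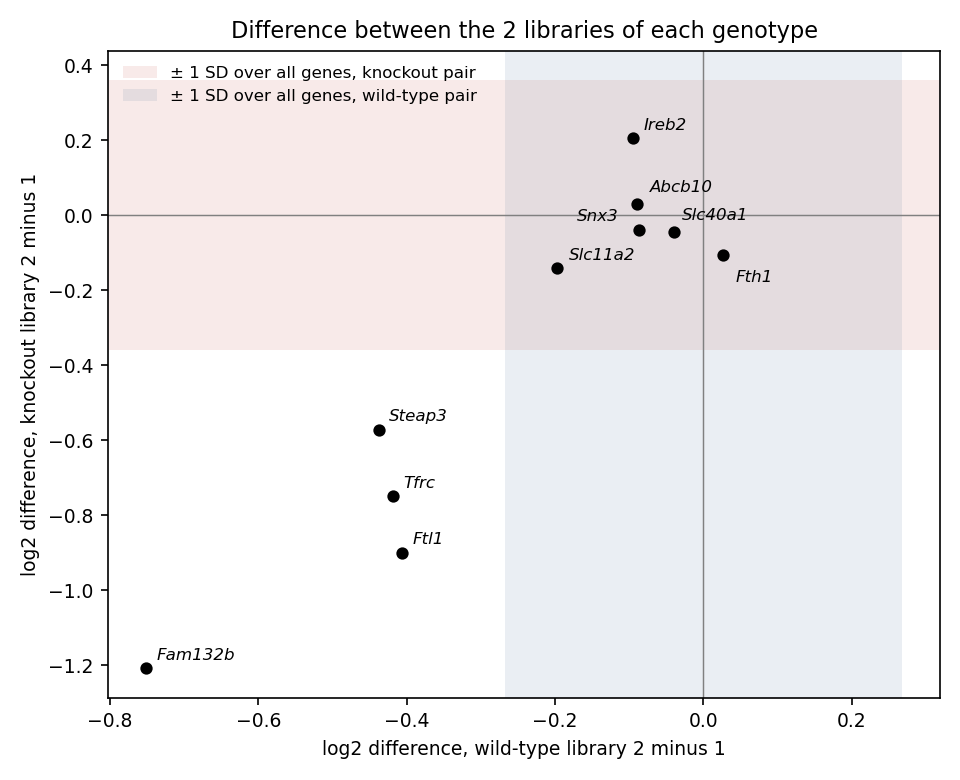
Log2 difference between library 2 and library 1 for each iron gene, in knockout (vertical axis) and in wild type (horizontal axis); the bands mark 1 SD over all genes tested on each axis. Fam132b, Ftl1, Tfrc and Steap3 lie beyond both bands at the lower left, and the other 6 genes lie within both.

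Profiles over the 4 libraries were compared by the Euclidean distance between log2(FPKM + 1) values centred on each gene's own mean. Among the 10 genes the closest pair was Snx3 and Abcb10, at a distance of 0.049. Tfrc and Fam132b were each other's nearest, at 0.418. Over all 10670 genes tested, the nearest to Tfrc were Dcbld2 (0.064), Art4 (0.132) and Ankrd37 (0.139). Dcbld2 stood at 24.5 and 14.0 FPKM in knockout, against 42.5 and 32.8 FPKM in wild type. With 4 libraries such closeness is a description only.

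Other genes of iron handling were read from lists by role. Outside the 10 genes the lists held 54 names, of which 46 were in the table and 37 passed the filter. None of these 37 passed an adjusted p of 0.05 in limma, beside 10 of all 10670 genes tested (0.0937%). An unadjusted p under 0.05 was found for 1, Hfe2, lower in knockout, as for 2.4% of all genes tested in that direction. Hfe2 passed the filter only through its wild-type values, so its p and direction are a description only. In the higher direction such a p was found for none of the 37 and for 962 of all 10670 genes tested. Of the 37, 7 had both knockout values above both wild-type values (29.9% of all genes tested did). Both were below for 4 of the 37, Hfe2 among them (10.8% of all genes tested). The other 26 overlapped, and the median log2 difference of the 37 was 0.078.

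Among further genes of uptake (9 tested), 1 was higher in both knockout libraries, where 29.9% of all genes tested were, and none lower in both, where 10.8% were. The retromer gene Vps35, which retrieves membrane proteins from endosomes, averaged 42.0 ± 5.16 FPKM in knockout and 50.03 ± 10.05 FPKM in wild type (SD, n = 2 each), the largest difference of the list (log2 −0.24, limma adjusted p = 0.723). Picalm, a clathrin assembly gene, averaged 49.8 ± 4.98 FPKM in knockout and 51.2 ± 1.22 FPKM in wild type. The retromer gene Vps29 averaged 35.3 ± 9.05 FPKM in knockout and 35.5 ± 8.08 FPKM in wild type.

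In the mitochondrial list (9 tested), Slc25a37, which encodes mitoferrin, the importer that Abcb10 stabilizes, had the largest difference of the list. It stood at 108 and 41.3 FPKM in knockout, against 234 and 102 FPKM in wild type. Library 2 was again the lower in each genotype, and knockout library 1 lay just above wild-type library 2, so the genotypes overlapped (log2 difference −1.20, SE 0.53, limma adjusted p = 0.478). Without knockout library 1 it passed the threshold, in a fit whose lone knockout library had no spread of its own. Tmem14c, which serves porphyrin import, averaged 317 ± 34.0 FPKM in knockout and 288 ± 25.03 FPKM in wild type. Fech, which inserts iron into the porphyrin to form heme, averaged 293 ± 33.5 FPKM in knockout and 307 ± 24.04 FPKM in wild type (SD, n = 2 each).

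In the list of iron sensing and ferritin handling (8 tested) 2 genes were higher in both knockout libraries, beside 29.9% of all genes tested, and none lower in both. The iron chaperone gene Pcbp2, which delivers iron to ferritin, stood at 484 and 599 FPKM in knockout, against 414 and 434 FPKM in wild type, without passing the test (log2 difference 0.35, SE 0.16, limma adjusted p = 0.504). Its relative Pcbp1 averaged 165 ± 43.2 FPKM in knockout and 182 ± 21.2 FPKM in wild type. Bola2, a partner of the cytosolic glutaredoxin in iron transfer, averaged 69.0 ± 24.2 FPKM in knockout and 64.4 ± 7.96 FPKM in wild type (SD, n = 2 each).

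For iron and heme export and the hepcidin axis (7 tested), 4 genes were higher in both knockout libraries (29.9% of all genes tested) and 1 was lower in both (10.8% of all genes tested). The lower one was Hfe2, which encodes hemojuvelin, at 0.80 and 0.63 FPKM in knockout, against 1.60 and 1.77 FPKM in wild type. These levels were close to the filter, which Hfe2 passed only through its wild-type values. It was thus among the genes tested only because it was higher there, and its lower knockout values are a description. The log2 difference of −0.65 (SE 0.18) did not pass over all genes (limma adjusted p = 0.27, unadjusted p = 0.00972). Slc48a1, a heme transporter of endosomes and lysosomes, stood at 102 and 131 FPKM in knockout and at 80.6 and 99.6 FPKM in wild type (log2 difference 0.36, limma adjusted p = 0.539). The exporter gene Abcg2 averaged 72.5 ± 5.19 FPKM in knockout and 65.5 ± 0.672 FPKM in wild type, and the biliverdin reductase gene Blvrb averaged 317 ± 63.5 FPKM in knockout and 328 ± 10.1 FPKM in wild type (SD, n = 2 each).

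Transcripts known for an iron responsive element (9 tested, 5 of them among the 10 genes) had a median log2 difference of −0.13. Of the 9, 5 had both knockout values below both wild-type values (10.8% of all genes tested) and 1, Slc11a2, had both above (29.9%). These counts were not made with median-centred values, for which the shares over all genes tested were 20.1% and 19.9%. The most abundant besides the ferritins was Alas2, the erythroid enzyme that commits glycine to heme synthesis, whose 5′ UTR also matched the hairpin. It stood at 2830 and 3136 FPKM in knockout, against 3721 and 4123 FPKM in wild type (log2 difference −0.39, SE 0.18, limma adjusted p = 0.486). Of the genes with the hairpins shown above, Tfrc, with 3′ elements, and Fth1 and Slc40a1, with 5′ elements, were lower in both knockout libraries, while Ftl1, with a 5′ element, overlapped.

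**Figure D4:**
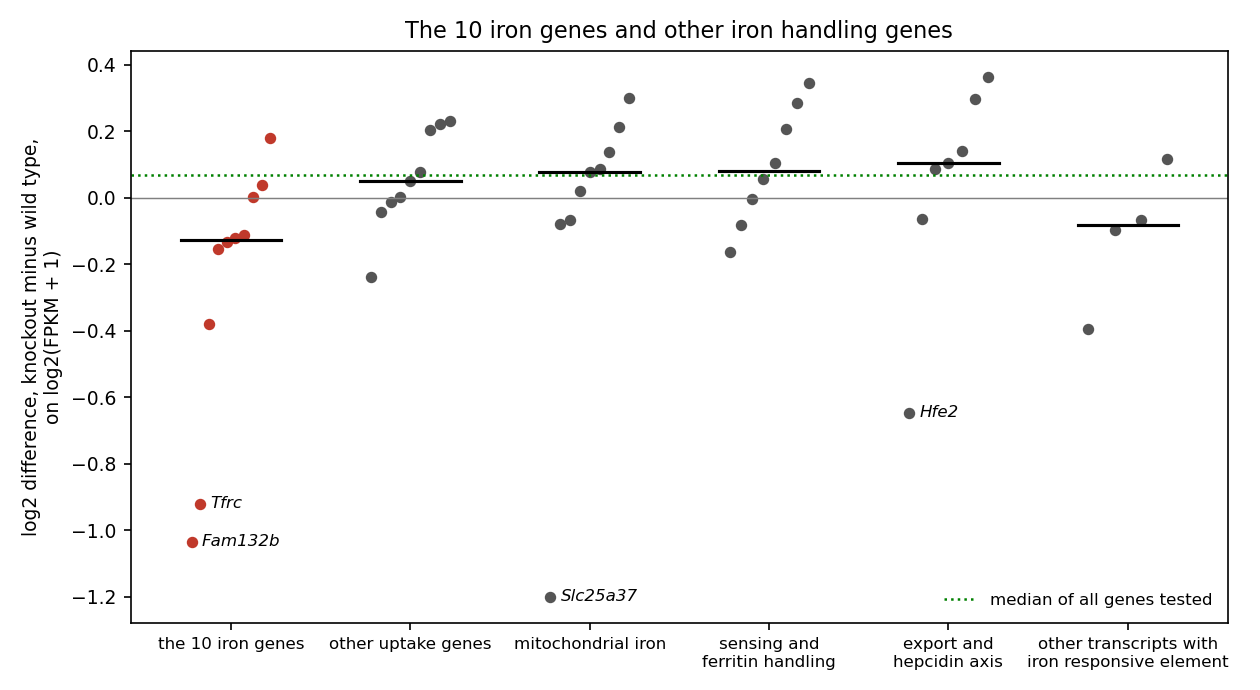
Log2 difference between knockout and wild type for the 10 iron genes (left, red) and for the other iron handling genes that passed the filter, by list and leaving out the 10; black bars are medians of the points shown and the dotted line is the median of all genes tested (0.067). Slc25a37 (−1.20), Fam132b (−1.03), Tfrc (−0.92) and Hfe2 (−0.65) lie apart from the other genes, which range between −0.39 and 0.36. Hfe2 passed the filter only through its wild-type values.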

How the data were processed

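The authors deposited 1 table of FPKM per gene for the 4 libraries, per the file headers; the unit was identified from the values, since FPKM times transcript length summed to between 1.02e+09 and 1.04e+09 in each library. RNA was depleted of ribosomal RNA, per the labels' protocols. TopHat2 and mm10 are named in the submitters' processing notes, while no source used here states which program made the FPKM values. Of the 10 iron genes, 4 include transcripts assembled from the reads.

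The filter was a value of 1 FPKM or more in 2 or more libraries (10670 of 17393; all 10 iron genes passed). The genotypes were compared by limma 3.58.1 (R 4.3.3) on log2(FPKM + 1), with a mean-variance trend and no covariates, and p-values were adjusted by Benjamini-Hochberg over all genes tested. The pseudocount shrinks the differences of low genes. An exact permutation test of 2 against 2 cannot give a two-sided p below 0.333, so none was run. On simulated data (5 runs) the procedure called 24.4% of 1.5-fold changes, 88.4% of 2-fold changes and 0.0776% of unchanged genes. The simulated noise was independent between libraries, with a spread shared by genes of like level. It did not hold the differences that libraries 1 and 2 showed in both genotypes, so these rates need not hold here. Coordinates came from RefSeq (GRCm38.p6), hairpins from GENCODE M21 transcripts matched by RefSeq identifier.

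The text names the 10 genes and, from each of 5 lists, the members past the threshold, the 3 most abundant and the 1 with the largest difference. The genes and lists were chosen with earlier results of these data known. Alternatives were median centring, quantile normalization, omission of 11 globin genes, other filters and pseudocount, no trend, the library number as a block, and omission of each library. A result of the mitochondrial list is not reported here.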

Additional observations from a re-analysis of the deposited data

How the results depend on the processing

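The count of iron genes past the threshold was 0 under 10 of 12 alternatives. It was 2, Tfrc and Fam132b, both lower, with the library number as a replicate block, where 1863 of all 10670 genes tested passed. The other exception was the fit without knockout library 1, which left a lone knockout library. Its spread came from the wild-type libraries alone, and many more genes over the whole table passed there too. Its count is therefore no result particular to the iron genes. In that fit the log2 differences were −1.29 for Tfrc and −1.64 for Fam132b. For the 37 other iron genes tested the count was 6 with the replicate block (Slc25a37, Pcbp2, Hfe2 and Slc48a1 among them), beside the same 1863 of 10670. Of these genes, Hfe2 passed the filter only through its wild-type values. Over all genes 10 passed in limma, against 21 with the globin genes left out, 2 with a mean of at least 5 FPKM, 1863 with the replicate block, 0 without the filter on low genes (1957 at an unadjusted p under 0.05), and 0 to 720 with single libraries left out (574 at an unadjusted p under 0.05 in each of the fits with 0). The labels do not pair the numbers. The library 2 minus library 1 differences of the genotypes correlated across genes at 0.606, a hint from the data and not from the design. Tfrc, Fam132b, Fth1, Slc40a1, Snx3 and Abcb10 stayed negative and Slc11a2 positive in all 12 alternatives. Most of these alternatives could not change the sign. Other filters, no trend and the block leave the difference as it is. Leaving out a library or changing the pseudocount cannot reverse a gene whose genotypes do not overlap. Only median centring, quantile normalization and omission of the globin genes could have reversed these signs. Near 0, Steap3 turned to −0.039 with median-centred values, −0.044 after quantile normalization and −0.018 without globins, and ran from −0.25 to 0.32 with single libraries left out. Ireb2 turned to −0.074, −0.077 and −0.053 under the same 3 settings and ran from −0.10 to 0.11 with single libraries left out. Ftl1 ran from −0.83 to 0.070 with single libraries left out. The cause was not tested. Counting error at the lowest value was largest for Fam132b (4.86%), followed by Slc40a1 (3.92%). The Fam132b libraries of a genotype differed by far more than that, at log2 −1.21 in knockout and −0.75 in wild type. For Slc40a1 they differed by −0.045 in knockout and −0.040 in wild type, so counting error was of like size only there.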

Other observations

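Several genes of iron handling were barely present, and they are named here after their values were seen. Of the 46 other iron genes in the table, 9 did not pass the filter. The transferrin gene Trf was at no more than 0.04 FPKM in any library. Hfe, the hemochromatosis gene, was at no more than 0.03 FPKM, and the multicopper ferroxidase genes Cp and Heph at no more than 0.06 and 0.01 FPKM. The hepcidin gene Hamp was listed at 0 in both knockout libraries and at 0.13 FPKM in both wild-type libraries. Its relative Hamp2 stood at 0.49 and 0.13 FPKM in knockout and at 2.60 and 0.60 FPKM in wild type, and was not tested.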
